A study of Mus musculus with 16 samples.

Results

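Livers of mice lacking the glucocorticoid receptor (GR) were compared with wild-type livers in the absence of dexamethasone, a synthetic glucocorticoid, on 8 of the 16 arrays of the series. The members of the comparison were chosen by the sample labels: 4 arrays of GR knockout liver, whose titles carry PBS_CTL and whose source names say no treatment, and 4 arrays of wild-type liver titled WT_Control. All 16 arrays came from male C57BL/6 mice aged 3 months. The other 8 arrays held 4 wild-type and 4 knockout livers given dexamethasone. They enter here as a point of reference and in the estimate of each gene's spread. The treatment protocol speaks of vehicle for the animals without dexamethasone, and the title of the untreated knockout livers names PBS while that of the wild-type livers does not, so the labels do not settle whether both groups had the same injection. The labels call the knockout a liver knockout, and they name neither the Cre line, nor the cells it acts in, nor the deleted exons. Whole-liver RNA was measured, so cells of the liver that are not hepatocytes contribute to every value. The labels do not state that each replicate is a separate mouse, and p-values measure the spread between these RNA samples.

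The glucocorticoid receptor, encoded by Nr3c1, is a nuclear receptor that is held in the cytoplasm by heat-shock protein complexes and moves to the nucleus once corticosterone, the main glucocorticoid of mice, binds it. There it binds DNA as a dimer at paired hexamers, or acts with other transcription factors, and it raises some genes and lowers others. In liver it is known for inducing enzymes that make glucose, break down amino acids and handle lipids, and for restraining inflammatory genes. Mice that receive no dexamethasone still make corticosterone in a daily rhythm, so the untreated comparison concerns the receptor's work under the animal's own hormone.

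Each array gave 1 value per gene, the log2 signal minus the 75th percentile of that array, called the level below, so that a level of 0 equals the 75th percentile and differences are knockout minus wild type. On 14 arrays that percentile corresponded to a signal of 503 to 663. The wild-type array numbered 4, at 384, and the knockout array numbered 1, at 296, both untreated, fell short of this range and are called the dim arrays. Knockout array 1 correlated with its own group at a mean r of 0.963 across genes, against 0.975 to 0.980 for the other 3 knockout arrays, and those 3 correlated as highly with the wild-type arrays (0.977 to 0.983). It also stood alone on the first principal component of the 8 arrays (40.9% of the variance), at 104 against -46.8 to 8.56 for the other 7. Each slide carried the 4 arrays of 1 group, so slide and genotype cannot be told apart. The hepatocyte transcripts of the marker list were high in both groups, with a summed signal of 3813 to 5373 times the 75th percentile on the wild-type arrays and 3468 to 4582 on the knockout arrays.

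Nr3c1 checked the labels. Its brightest probe, A_52_P138090 on chromosome 18 (mm7 build, 39787242 to 39787301), gave levels of 2.54, 2.53, 2.59 and 2.19 on wild-type arrays 1 to 4 and of 0.31, 0.50, 0.62 and 0.45 on knockout arrays 1 to 4. Every knockout array lay below every wild-type array, and the receptor transcript fell by 1.99 on the log2 scale (SE 0.15, n = 4 per group, 3.98-fold, limma adjusted p = 1.75e-05). Without the dim arrays the difference was -2.03 (SE 0.15, adjusted p = 0.00014). A further 3 probes of the gene gave -2.25, -1.63 and -2.11; the first was above background on 0 of the 4 knockout arrays, and the middle one was not called when all probes were tested (adjusted p = 0.17). The knockout livers therefore kept signal for this gene at probe A_52_P138090, which was above background on all 4 of their arrays, and the labels do not say whether the probe lies inside the deletion. In bulk tissue, fewer cells of a type and less RNA per cell cannot be told apart.

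**Figure D1:**
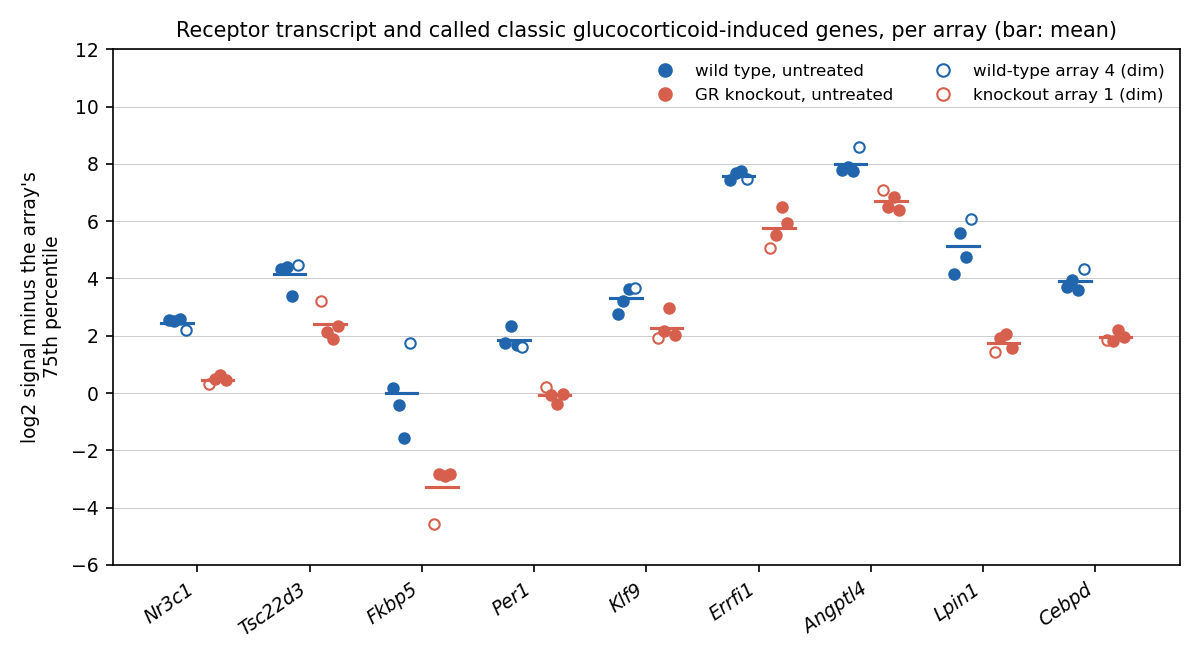
Level of Nr3c1 and of the 8 called members of the list of classic glucocorticoid-induced genes on each untreated array; y axis, log2 signal minus the array's 75th percentile; points, arrays; bars, means of 4; open points, the dim arrays. Nr3c1 lies at 2.19 to 2.59 in wild type and at 0.31 to 0.62 in knockout, and the groups overlap for Klf9 alone among the 9 genes.

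Known targets of the receptor were lower in the untreated knockout livers, among them Lpin1 (10.5-fold), Fkbp5 (9.58-fold), Cebpd (3.86-fold) and Per1 (3.74-fold), as were G6pc (2.47-fold) and Arg1 (1.98-fold), enzymes of glucose release and of the urea cycle. Transcripts of the complement protease Cfd were 60.7-fold higher, and those of the IgM heavy chain gene Ighm 2.88-fold higher (n = 4 per group, errors with each gene below). Across the transcriptome, 522 of the 18472 genes tested passed limma's adjusted p of 0.05 (2.83%), of which 376 were higher (2.04%) and 146 lower (0.79%) in the knockout. The arrays of the groups did not overlap for 2153 genes (11.7%), and 3585 genes had an unadjusted p under 0.05 (19.4%). Without the dim arrays 369 genes were called (2%), 247 higher (1.34%) and 122 lower (0.66%). Both fits called 242 genes (1.31%), 180 higher (0.974%) and 62 lower (0.336%), whereas 280 genes were called with all 8 arrays only and 127 without the dim arrays only. Leaving out a single array gave 313 calls without wild-type array 1, 151 without wild-type array 2, 286 without wild-type array 3, 291 without knockout array 2 and 325 without knockout array 4. Without wild-type array 4 alone 73 genes were called lower, and without knockout array 1 alone 224 were called higher and 225 lower. Normexp background correction, which compresses differences between dim signals, left 85 calls (46 higher, 39 lower), all among the 522, and a fit to the 8 untreated arrays alone left 80.

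**Figure D2:**
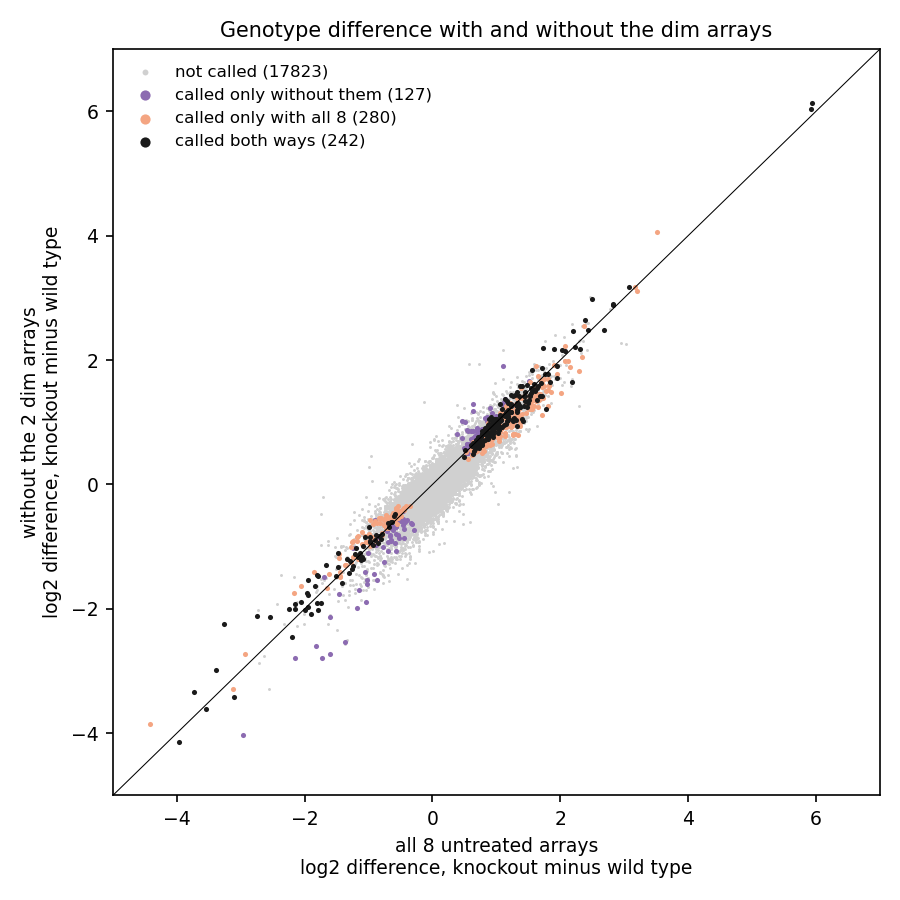
Log2 difference between knockout and wild type for each of 18472 genes, from all 8 untreated arrays (x axis) and without the dim arrays (y axis); line, equality. The 242 genes called both ways (black) lie close to the line, 280 were called with all 8 arrays only (orange) and 127 without the dim arrays only (purple).

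Genes called higher and genes called lower came from different parts of the range of levels. The median level over the 8 arrays was -3.36 for the 376 genes called higher, 1.18 for the 146 called lower and -0.60 for all genes tested. The genes were split by level into 4 bins of 4618. In the lowest bin 208 were called higher and 18 lower, and in the highest 10 were called higher and 63 lower. The same order was seen among the genes called both with and without the dim arrays, with 85 higher and 9 lower in the lowest bin against 6 higher and 27 lower in the highest. Of the 376 genes called higher, 67 were above background on none of the wild-type arrays, for which a fold is a lower bound. The median difference of the genes called higher was 1.16 with all arrays and 1.04 without the dim arrays. The part that low signal plays in these calls was not tested further.

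**Figure D3:**
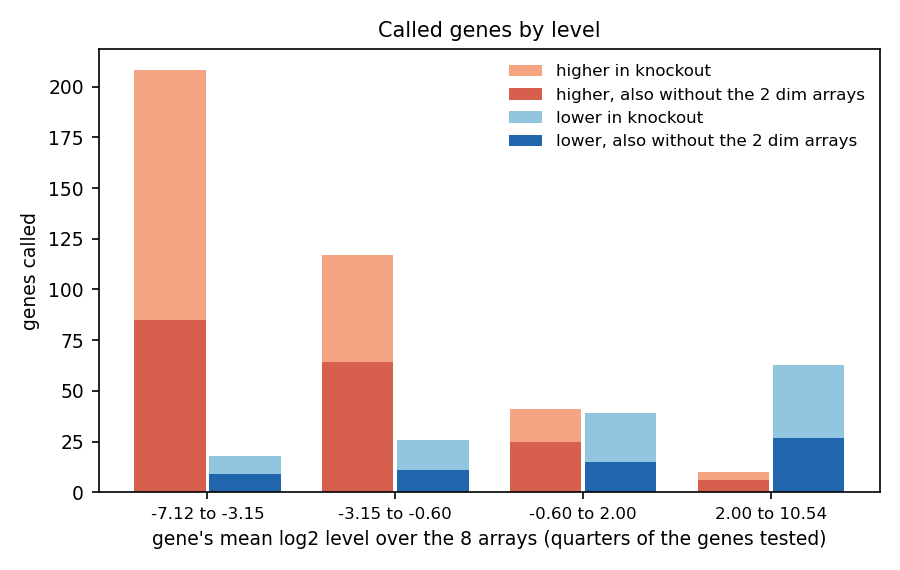
Number of genes called higher (red) or lower (blue) in the knockout in each of 4 bins of 4618 genes, ordered by mean log2 level over the 8 untreated arrays; pale bars, called with all arrays; dark bars, also called without the dim arrays. Calls higher number 208, 117, 41 and 10 from the lowest to the highest bin, and calls lower 18, 26, 39 and 63.

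Of the 23 classic glucocorticoid-induced genes tested, 8 were called lower in the untreated knockout, against 0.79% of all genes. Of the other 15, 0 were called higher. Over the list 15 genes had an unadjusted p under 0.05, against 19.4% of all genes. A difference below 0 was seen in 21, against 8178 of all 18472 genes, and the median difference was -1.06, against 0.045 over all genes. Without the dim arrays 7 were called and the median was -0.78. Lpin1, whose product lipin 1 makes diacylglycerol and acts as a transcriptional coactivator, gave levels of 4.16, 5.59, 4.74 and 6.07 on wild-type arrays 1 to 4 and of 1.45, 1.91, 2.08 and 1.57 on the knockout arrays. All knockout arrays lay well below the lowest wild-type array, and Lpin1 fell by 3.39 (SE 0.39, 10.5-fold, adjusted p = 0.0012; -2.98 without the dim arrays, adjusted p = 0.0085). Its 4 probes, which lie between 16590760 and 16591713 on chromosome 12 (mm7), gave differences of -3.36 to -3.40.

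Fkbp5, the co-chaperone that lowers the hormone affinity of the receptor, gave 0.16, -0.40, -1.56 and 1.76 in wild type and -4.56, -2.83, -2.88 and -2.81 in knockout. Each dim array was the extreme of its group, wild-type array 4 the highest and knockout array 1 the lowest. The fall was 3.26 with all arrays (difference -3.26, SE 0.61, adjusted p = 0.013) and 2.24 without the dim arrays (difference -2.24, SE 0.49, adjusted p = 0.040), so its size depended on them while its call did not.

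Per1, a clock gene that glucocorticoids induce directly, gave 1.74, 2.34, 1.67 and 1.59 in wild type and 0.23, -0.07, -0.39 and -0.04 in knockout, a fall of 1.90 (difference -1.90, SE 0.23, adjusted p = 0.0014; -2.08 without the dim arrays). Cebpd, a transcription factor of the acute phase response, gave 3.71, 3.96, 3.60 and 4.32 against 1.85, 1.81, 2.19 and 1.95 and fell by 1.95 (SE 0.29, adjusted p = 0.0049). Errfi1, a feedback inhibitor of the EGF receptor, gave 7.44, 7.66, 7.74 and 7.48 against 5.07, 5.51, 6.48 and 5.94 and fell by 1.83 (SE 0.28, adjusted p = 0.0056). In none of these 3 genes did an array of one group reach the other group.

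Tsc22d3, which encodes the anti-inflammatory protein GILZ, gave 4.35, 4.39, 3.37 and 4.46 in wild type and 3.20, 2.14, 1.90 and 2.35 in knockout, and fell by 1.74 (SE 0.29, adjusted p = 0.0091). The gap between the groups was narrow here, since wild-type array 3 lay just above knockout array 1. Angptl4, an inhibitor of lipoprotein lipase, gave 7.78, 7.90, 7.76 and 8.58 against 7.09, 6.49, 6.86 and 6.41 and fell by 1.29 (SE 0.22, adjusted p = 0.0093). Klf9, a transcription factor induced by glucocorticoids and thyroid hormone, was called with all arrays (-1.06, SE 0.25, adjusted p = 0.037). Its groups overlapped, and the call was lost without the dim arrays (-0.83, adjusted p = 0.15) and when 6 of the 8 arrays were left out singly (wild-type arrays 2, 3 and 4 and knockout arrays 1, 2 and 4, with adjusted p up to 0.090).

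The fit to the 8 untreated arrays alone did not call 4 of the 8, namely Fkbp5 (adjusted p = 0.083), Tsc22d3 (0.075), Angptl4 (0.069) and Klf9 (0.15).

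The remaining 15 genes of the list were not called. Mt1 and Mt2, the metallothioneins that bind zinc and copper, had levels on wild-type array 4 far above those of its group: 8.16 for Mt1 against 1.99 to 3.33 on the other 3 wild-type arrays, and 8.86 for Mt2 against 1.60 to 3.42. The knockout arrays lay at 1.46 to 3.71 for Mt1 and 1.35 to 4.42 for Mt2. The difference of Mt1 was -1.74 with all arrays (adjusted p = 0.37) and -0.48 without the dim arrays (adjusted p = 0.75). Cdkn1a, the cell cycle inhibitor p21, was likewise at 0.94 on wild-type array 4 and at -3.68 to -1.59 on the other 3, and its difference turned from -0.94 (adjusted p = 0.57) to 0.05 without the dim arrays (adjusted p = 0.98). Tat, the tyrosine aminotransferase that is a textbook target of the receptor in liver, gave 7.63, 7.89, 7.25 and 8.17 in wild type and 7.22, 6.80, 6.60 and 7.06 in knockout, with a difference of -0.81 (SE 0.24, adjusted p = 0.078). Tat was called lower with array weights (-0.88, adjusted p = 0.014) and with the replicate number as a block (adjusted p = 0.045). These settings called 1542 and 770 genes, against 522 in the main fit. In 11 of the 13 other settings, and without each of the 8 untreated arrays in turn, Tat was not called.

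The promoters of the 7 classic genes called both with and without the dim arrays were searched for TGTTCT, the hexamer that each receptor of a dimer binds, and for the spaced core ACANNNTGT, on both strands, in the window from 250 bases before to 50 bases after each start in RefSeq (GRCm38.p6). Of the 7 genes 5 had a promoter in the table. The hexamer was found in 2 of these genes, Lpin1 and Tsc22d3, and the core in 0. The sequences below show these hexamers in capitals with the bases around them, 5′ to 3′ on the strand of the gene; they were picked after the values were seen.
Lpin1, chr12:16611067-16611186, minus strand, hexamer from position -163 relative to the start: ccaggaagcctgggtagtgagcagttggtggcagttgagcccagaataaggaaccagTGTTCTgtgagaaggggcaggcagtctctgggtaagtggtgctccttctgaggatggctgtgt
Tsc22d3, chrX:140600645-140600764, minus strand, hexamer from position -185 relative to 1 of its starts: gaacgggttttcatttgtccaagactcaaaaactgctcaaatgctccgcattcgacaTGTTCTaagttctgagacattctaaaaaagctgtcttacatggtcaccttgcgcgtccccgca
A match of this length is common. TGTTCT was present in 16.3% of the promoters of 12043 genes tested, in 18.7% of those of 91 genes called lower and in 18.5% of those of 232 genes called higher. The core ACANNNTGT was present in 5.83%, 9.89% (9 genes) and 6.47% (15 genes). These shares are a description and were not tested, and known receptor sites that lie outside the window were not searched.

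The largest falls, taken among genes with a symbol that were called with and without the dim arrays and whose groups did not overlap, were Scara5, Obp2a, Lpin1, Fkbp5, Capn8, Eif4ebp3, Nlrp12, Fhad1, Pfkfb3 and Serpine2. In 8 of these 10 genes wild-type array 4 had the highest level of its group. Scara5, a ferritin receptor, gave -0.38, -1.89, -2.02 and 1.33 in wild type and -3.59, -3.32, -5.62 and -5.37 in knockout, a difference of -3.73 (SE 0.68, adjusted p = 0.012; -3.34 without the dim arrays). Eif4ebp3, a repressor of cap-dependent translation, gave 4.19, 3.82, 3.03 and 6.17 against 1.55, 1.45, 1.55 and 1.68, a difference of -2.75 (SE 0.47, adjusted p = 0.0091; -2.12 without the dim arrays). The knockout arrays of Eif4ebp3 were nearly level, while the wild-type arrays ranged from 3.03 to 6.17.

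Pfkfb3, an enzyme that makes the glycolytic activator fructose 2,6-bisphosphate, gave 2.78, 3.68, 2.96 and 2.32 in wild type and 0.87, 0.99, 0.74 and 0.34 in knockout. Here the dim wild-type array was the lowest of its group, and the fall was 2.20 with all arrays (difference -2.20, SE 0.26, adjusted p = 0.0012) and 2.45 without the dim arrays. Nlrp12, a NOD-like receptor that restrains NF-kB signalling, gave 4.03, 3.53, 4.12 and 4.71 against 0.90, 2.04, 2.48 and 0.79 (-2.55, SE 0.33, adjusted p = 0.0021). With the probes of the gene averaged, Nlrp12 (-1.37, adjusted p = 0.080) and Fhad1 (-0.84, adjusted p = 0.11) lost the call. A further Fhad1 probe, above background on all 4 arrays of each group, went the other way (0.56). It was not called when all probes were tested (adjusted p = 0.30). The other Nlrp12 probe (-0.19) was above background on 1 array of each group.

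The other falls were measured at low signal in the knockout. Obp2a, an odorant-binding lipocalin, was above background on all 4 wild-type arrays (-4.38 to -2.20) and on 0 of the 4 knockout arrays (-7.45 to -6.25), so its fall was at least 3.01-fold. Capn8, a calcium-dependent protease, lay at -3.60 to -1.47 in wild type and at -7.04 to -3.64 in knockout (-3.11, adjusted p = 0.023), but its call was lost without wild-type array 1, 2 or 4 or knockout array 4 (adjusted p up to 0.066). Scara5 was above background on all 4 wild-type arrays and on 2 of the 4 knockout arrays. Of the untreated groups, Scara5, Obp2a and Capn8 met the filter on low signal in wild type alone. That filter asked for at least 3 of the 4 arrays of some group well above background. The calls of Scara5, Obp2a and Capn8 are therefore a description. Serpine2, an inhibitor of thrombin and urokinase, lay at -2.45 to -0.88 against -4.58 to -3.71 (-2.15, SE 0.34, adjusted p = 0.0064). Under normexp 4 of the 10 falls lost the call, namely Scara5 (-2.09, adjusted p = 0.076), Obp2a (-0.60), Capn8 (-1.01) and Serpine2 (-1.02). The fit to the 8 untreated arrays alone did not call 7 of the 10, namely Scara5 (adjusted p = 0.091), Fkbp5 (0.083), Capn8 (0.11), Eif4ebp3 (0.080), Nlrp12 (0.051), Fhad1 (0.092) and Serpine2 (0.052).

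**Figure D4:**
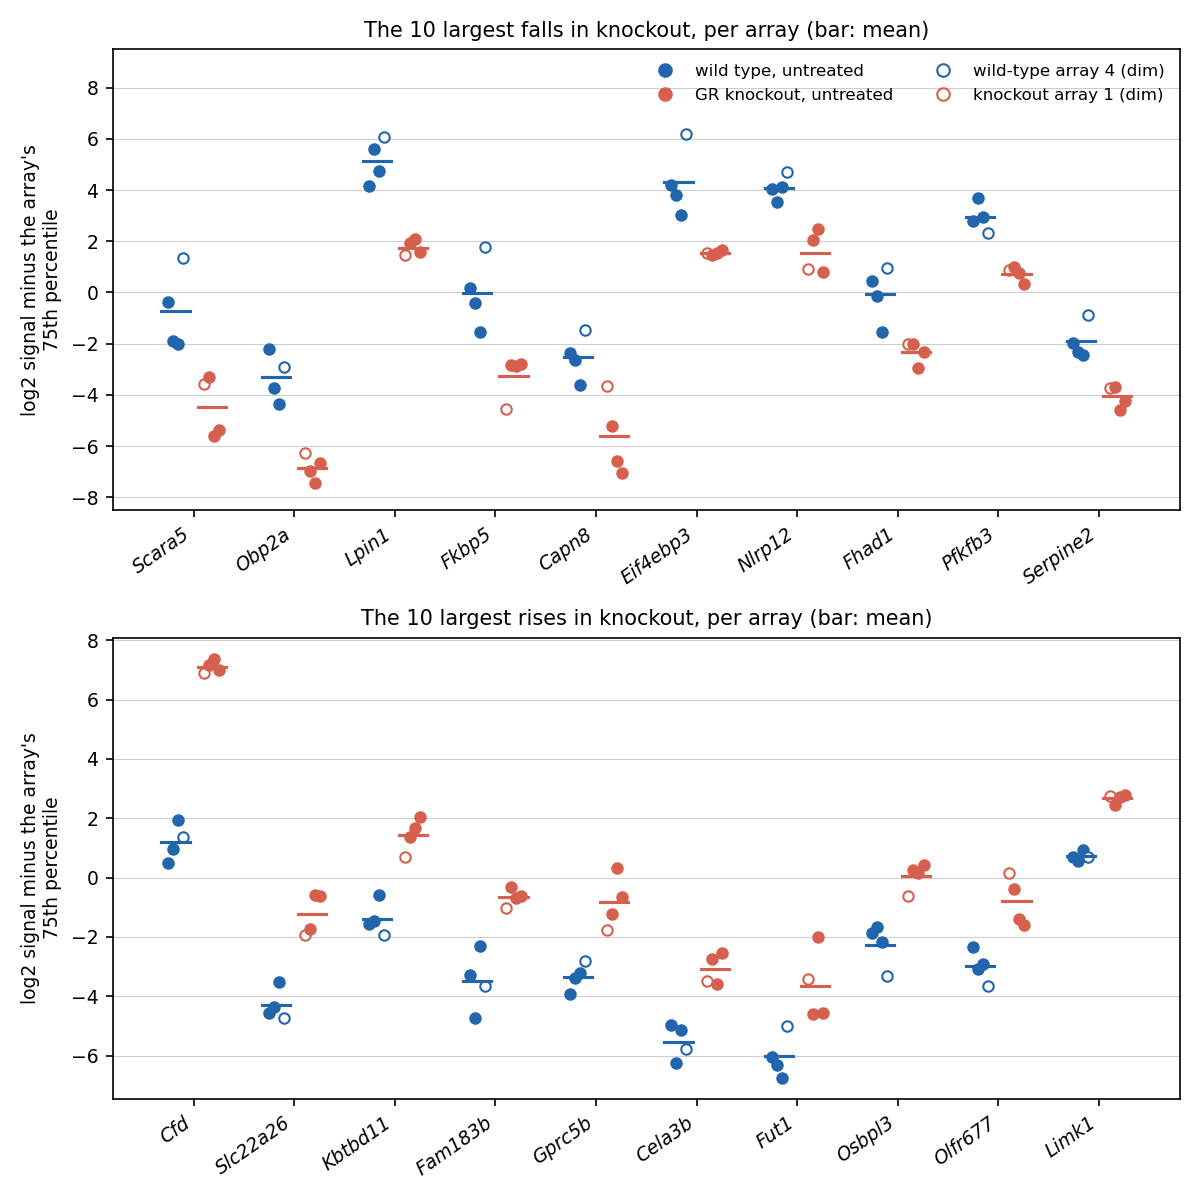
Levels on each untreated array of the 10 largest falls (upper panel) and the 10 largest rises (lower panel) in knockout liver; y axis, log2 signal minus the array's 75th percentile; points, arrays; bars, means of 4; open points, the dim arrays. Wild-type array 4 is the highest of its group in 8 of the 10 falls, and Cfd lies at 0.48 to 1.94 in wild type and 6.90 to 7.38 in knockout.

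The largest rise was Cfd, complement factor D or adipsin, a serine protease of the alternative complement pathway that fat cells secrete. It gave 0.48, 0.98, 1.94 and 1.36 on the wild-type arrays and 6.90, 7.16 and 7.38 on knockout arrays 1 to 3, while array 4 lay between arrays 1 and 2, a rise of 5.92 (SE 0.89, 60.7-fold, adjusted p = 0.0049; 6.05 without the dim arrays, adjusted p = 0.022). The 4 untreated knockout arrays lay close together and far above every untreated wild-type array. With dexamethasone, whose arrays also enter the SE, Cfd lay at -0.39 to 3.23 in wild type and at 3.35 to 7.92 in knockout. The probe, A_51_P156955, lies on chromosome 10 (mm7, 79672573 to 79672632). Of the adipocyte markers tested, 1 of 3 was called, namely Cfd; the other two, Plin1 (0.96, adjusted p = 0.31) and Retn (1.62, adjusted p = 0.15), are named after their values were seen. The summed signal of the 3 genes was 1.48 to 3.88 times the 75th percentile in wild type and 120 to 167 in knockout, of which Cfd itself made up 1.40 to 3.83 and 120 to 167. Without Cfd the sum was 0.035 to 0.0798 in wild type and 0.0805 to 0.229 in knockout. The part of fat cells in the rise of Cfd was not tested.

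Slc22a26, Kbtbd11 and Limk1 rose as well. Slc22a26, a transporter of organic anions, gave -4.56, -4.36, -3.50 and -4.74 in wild type and -1.93, -1.72, -0.57 and -0.63 in knockout (3.08, SE 0.43, adjusted p = 0.0031; 3.17 without the dim arrays). Kbtbd11, a BTB and kelch domain protein, gave -1.58, -1.47, -0.57 and -1.93 against 0.70, 1.37, 1.68 and 2.04 (2.83, SE 0.40, adjusted p = 0.0037). Limk1, the kinase that inactivates cofilin and so stabilises actin, gave 0.70, 0.56, 0.95 and 0.68 against 2.77, 2.45, 2.70 and 2.78 (1.95, SE 0.33, adjusted p = 0.0091). The 4 arrays of each group were tighter for Limk1 than for Slc22a26 or Kbtbd11. Groups that do not overlap were a condition for these rises, as for the falls.

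Of the other rises, Fam183b (2.83, SE 0.42), the orphan receptor gene Gprc5b (2.50, SE 0.48), the oxysterol-binding protein gene Osbpl3 (2.31, SE 0.34) and the olfactory receptor gene Olfr677 (2.19, SE 0.38) had adjusted p of 0.0049, 0.014, 0.0049 and 0.0093. Cela3b, an elastase of the exocrine pancreas, was above background on 1 wild-type and 4 knockout arrays, at -6.24 to -4.98 against -3.59 to -2.54 (2.44, SE 0.31, adjusted p = 0.0017). Of the exocrine pancreas markers 0 of 4 tested were called and 2 had an unadjusted p under 0.05, their summed signal was 0.588 to 0.966 times the 75th percentile in wild type and 0.930 to 1.67 in knockout, and Cpa1 was above background on no wild-type array. Over all genes 19.4% had an unadjusted p under 0.05. Of the untreated groups, Cela3b met the filter on low signal in the knockout alone, so its call is a description. The part of pancreatic RNA in the rise of Cela3b was not tested. Fut1, a fucosyltransferase, was above background on no wild-type array and on all 4 knockout arrays, which gives a rise of at least 2.28-fold, and since it passed the filter on low signal through the knockout groups alone, it had to differ. It was not called without wild-type array 2 (2.28, adjusted p = 0.072) or 3 (2.14, adjusted p = 0.061). Under normexp Gprc5b (1.53, adjusted p = 0.056), Olfr677 (1.44, adjusted p = 0.056), Cela3b (0.74, adjusted p = 0.25) and Fut1 (0.57, adjusted p = 0.64) lost the call. The fit to the 8 untreated arrays alone did not call Gprc5b (adjusted p = 0.055), Fut1 (0.12), Osbpl3 (0.051) and Olfr677 (0.076), 4 of the 10 rises.

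In gluconeogenesis 2 of 14 genes were called lower (1 without the dim arrays) and 0 higher. Of all genes 0.79% were called lower (0.66% without the dim arrays). All 14 differences lay below 0, as did those of 8178 of all 18472 genes. The median was -0.41 (-0.30 without the dim arrays), against 0.045 and 0.029 over all genes. G6pc, the catalytic subunit of glucose-6-phosphatase, gave 7.13, 6.88, 6.62 and 6.36 in wild type and 5.43, 5.43, 5.33 and 5.56 in knockout. It fell by 1.31 (SE 0.22, 2.47-fold, adjusted p = 0.0085), and by 1.43 without the dim arrays (difference -1.43, adjusted p = 0.018). Slc37a4, the transporter that brings glucose 6-phosphate to that enzyme, differed by -1.05 (SE 0.20, adjusted p = 0.015), and lost the call without the dim arrays (-0.93, adjusted p = 0.063) and without wild-type array 2 alone (-1.03, adjusted p = 0.053). Pck1, the cytosolic enzyme of the first committed step, gave 8.26, 8.41, 8.38 and 8.60 against 8.27, 7.40, 8.11 and 7.63, with overlapping groups (-0.56, SE 0.35, adjusted p = 0.42).

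In the urea cycle 3 of 8 genes were called lower (1 without the dim arrays) and 0 higher, with a median of -0.49 (-0.29 without the dim arrays). Of all genes 0.79% were called lower (0.66% without the dim arrays). Arg1, the arginase that releases urea, gave 7.22, 7.13, 6.75 and 7.43 in wild type and 6.05, 6.33, 5.99 and 6.24 in knockout, and it fell by 0.98 (SE 0.15, adjusted p = 0.0064; -0.85 without the dim arrays, adjusted p = 0.025; 0.064 with the 8 untreated arrays alone). Asl (-0.93, adjusted p = 0.049) and Cps1 (-0.90, adjusted p = 0.040), the enzymes of argininosuccinate cleavage and of carbamoyl phosphate synthesis, were not called without the dim arrays (-0.63, adjusted p = 0.20, and -0.59, adjusted p = 0.071). Single arrays also ended those calls: any of wild-type arrays 1, 2 and 4 and knockout arrays 1, 2 and 3 for Asl (adjusted p up to 0.11), and any wild-type array or knockout array 4 for Cps1 (adjusted p up to 0.094). Otc differed by 0.14 (adjusted p = 0.70).

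In amino acid catabolism 0 of 21 genes were called in either direction, 7 had an unadjusted p under 0.05, all lower (19.4% of all genes had one), and the median was -0.42 with all arrays and -0.15 without the dim arrays. Tdo2, which opens the breakdown of tryptophan, lay at 5.13 to 5.71 in wild type and 4.04 to 4.78 in knockout (-0.86, SE 0.33, adjusted p = 0.16). Of 10 hepatocyte markers 2 were called lower, Cps1 and Apoa1, the main protein of high-density lipoprotein, where 0.79% of all genes were called lower. Apoa1 gave 8.88, 8.72, 8.52 and 9.26 against 8.18, 8.08, 8.09 and 7.49 (-0.88, SE 0.18, adjusted p = 0.020; -0.82 without the dim arrays, adjusted p = 0.038), and without wild-type array 2 its adjusted p was 0.0502, and with the 8 untreated arrays alone 0.11. Of the periportal markers 2 of 10, Arg1 and Cps1, were called lower with a median of -0.54, and of the pericentral markers 0 of 10 were called, 3 were lower at an unadjusted p under 0.05, and the median was 0.16.

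Lipid synthesis showed little besides Lpin1. It was the 1 gene called of 20 in fatty acid and triglyceride synthesis (median 0.31), where 2.83% of all genes were called. Of 25 cholesterol synthesis genes 0 were called, with 0 of 25 also at an unadjusted p under 0.05. Fasn, the fatty acid synthase, was at 5.91 on wild-type array 4 and 7.82 to 8.65 on the other wild-type arrays, and Srebf1, which drives that pathway, was at 5.18 against 6.30 to 7.86. The knockout arrays lay at 7.73 to 8.81 and 6.60 to 8.05, and the differences were 0.60 (adjusted p = 0.56) and 0.76 (adjusted p = 0.46). Of 23 fatty acid oxidation genes Angptl4 alone was called.

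**Figure D5:**
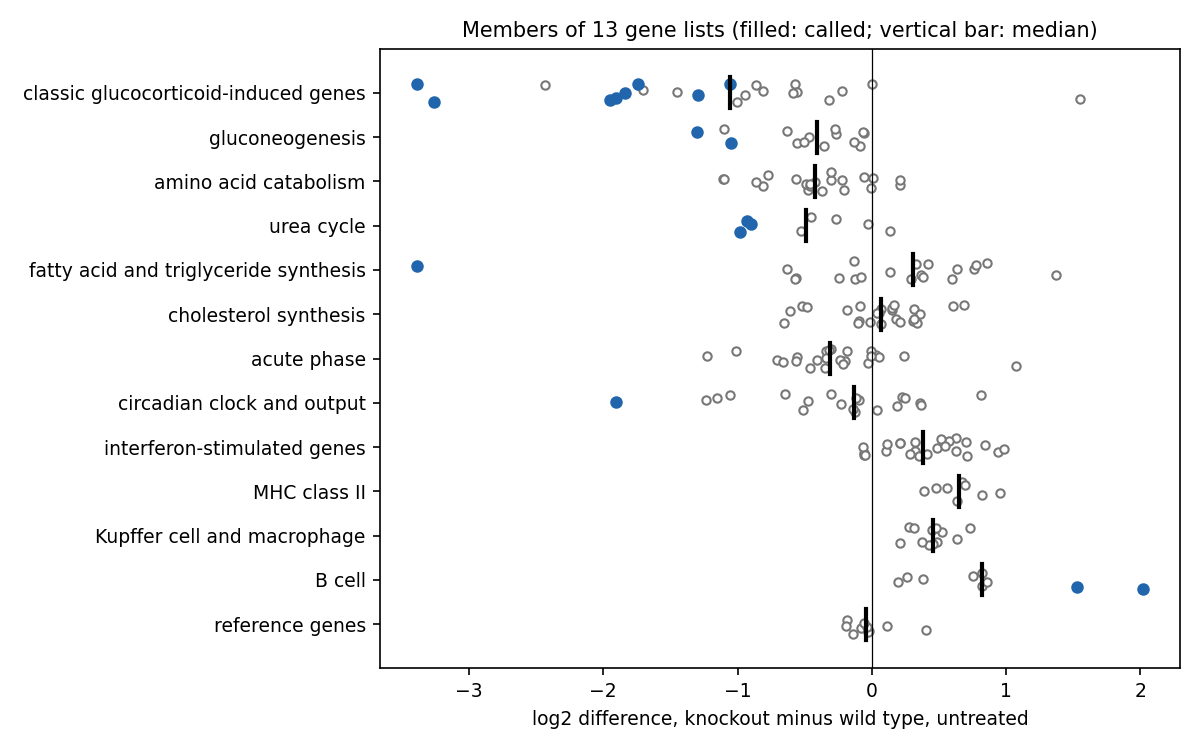
Log2 difference between knockout and wild-type untreated liver for each tested member of 13 gene lists; filled points, adjusted p under 0.05; vertical bars, medians. The classic list has the lowest median (-1.06) and the B cell list the highest (0.82) of those drawn.

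Immune genes lay mostly above 0 with few calls. Of all 18472 genes 10294 lay above 0, and 2.83% were called. Of 24 interferon-stimulated genes 0 were called and 9 were higher at an unadjusted p under 0.05, a level that 19.4% of all genes reached in either direction. The median was 0.38, or 0.24 without the dim arrays. Ifit3, an antiviral effector, gave 1.63, 1.40, 1.35 and 1.31 in wild type and 2.15, 1.68, 1.66 and 2.70 in knockout (0.63, SE 0.26, adjusted p = 0.20). Its groups did not overlap, as for 11.7% of all genes, and they all but met at 1.63 and 1.66. All 8 MHC class II genes had differences above 0 (median 0.65), with 0 called and 5 at an unadjusted p under 0.05; Ciita, their transactivator, differed by 0.95 (adjusted p = 0.053; 0.76 without the dim arrays, adjusted p = 0.17). Ciita was called without knockout array 3 (1.18, adjusted p = 0.017), with array weights (0.79, adjusted p = 0.037) and with the percentile over bright probes (1.00, adjusted p = 0.045). Of 12 Kupffer cell and macrophage markers 0 were called, all 12 were above 0 (median 0.45) and 5 had an unadjusted p under 0.05. Their summed signal was 70.7 to 96.7 times the 75th percentile in wild type and 86.3 to 168 in knockout, which overlap. The part of macrophages in these differences was not tested.

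B cell markers gave 2 calls of 9, both higher, against 2.04% of all genes. All 9 differences lay above 0 (median 0.82, or 0.55 without the dim arrays), as did those of 10294 of all 18472 genes. Ighm, the heavy chain of IgM, gave 0.59, 0.81, 0.70 and 0.58 in wild type and 2.37, 1.93, 2.08 and 2.40 in knockout, and rose by 1.53 (SE 0.25, 2.88-fold, adjusted p = 0.0075; 1.44 without the dim arrays). A further Ighm probe, above background on all 4 arrays of each group, differed by 1.76 with overlapping groups. That probe was not called when all probes were tested (adjusted p = 0.24). Pax5, the transcription factor that keeps B cell identity, was above background on no wild-type array and on 2 of 4 knockout arrays, and its lower bound was 1.12-fold (fitted difference 2.02, adjusted p = 0.0024; 0.41 under normexp, adjusted p = 0.75). In neither untreated group did Pax5 meet the filter on low signal, so it passed through a treated group. With dexamethasone its levels were -7.06 to -5.80 in wild type and -4.93 to -3.99 in knockout. The call of Pax5 is therefore a description. Cd79a, a subunit of the antigen receptor, differed by 0.75 (adjusted p = 0.27). The summed signal of the 9 markers was 2.55 to 2.75 times the 75th percentile in wild type and 5.40 to 7.97 in knockout, of which Ighm itself made up 1.49 to 1.75 and 3.82 to 5.29. Without Ighm the sum of the other 8 markers was 0.921 to 1.09 in wild type and 1.1 to 2.78 in knockout, so that the ranges all but met. The part of B cells in these differences was not tested.

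Of 17 inflammatory cytokines and NF-kB regulators tested, 1 was called higher and 1 lower, and 5 had an unadjusted p under 0.05, 2 of them higher. Over all genes 2.04% were called higher and 0.79% lower, and 19.4% had an unadjusted p under 0.05. Tnf, the cytokine tumour necrosis factor, was above background on no wild-type array (-5.93 to -5.35) and on 3 of the 4 knockout arrays (-4.82 to -3.94), a rise of at least 1.32-fold (adjusted p = 0.0067; 0.19 and not called under normexp; adjusted p = 0.069 with the 8 untreated arrays alone). It passed the filter on low signal through the knockout groups alone, so its call is a description. Il6ra, the interleukin 6 receptor, gave -0.12, -0.17, -0.88 and 0.03 against -1.54, -1.71, -1.59 and -1.78, and was lower by 1.37 (difference -1.37, SE 0.26, adjusted p = 0.015). It lost the call without the dim arrays (-1.30, adjusted p = 0.054) and without wild-type array 2 alone (-1.33, adjusted p = 0.053). Of 24 acute phase genes 0 were called, with 5 lower at an unadjusted p under 0.05 (median -0.31). Saa1, serum amyloid A, was at 7.17 on wild-type array 4 and 4.32 to 5.73 on the others (-0.20, adjusted p = 0.91).

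Among genes of growth arrest and the cell cycle, Gadd45a, a stress-induced growth arrest gene, gave 0.56, -0.11, 0.07 and -0.90 in wild type and 1.04, 1.81, 2.02 and 2.01 in knockout, and rose by 1.81 (SE 0.30, 3.51-fold, adjusted p = 0.0091; 1.77 without the dim arrays). With the 8 untreated arrays alone Gadd45a was not called (adjusted p = 0.069). Rrm2, the ribonucleotide reductase subunit needed for DNA synthesis, was called lower with overlapping groups (-1.62, adjusted p = 0.022), and not without the dim arrays (-1.45, adjusted p = 0.094), wild-type array 1 or 2 or knockout array 2 (adjusted p up to 0.068). These were the 2 called of 22 tested, and 11 reached an unadjusted p under 0.05 (10 above 0 and 1 below), with a median of 0.64 (0.53 without the dim arrays). Over all genes 2.83% were called and 19.4% had an unadjusted p under 0.05. Of 14 male-biased liver genes 1 was called (median -0.33), and of 14 female-biased genes 1 was called (median 0.02, with 7 above and 7 below 0). The male-biased complement gene C6 was lower (-1.45, SE 0.28, adjusted p = 0.016) and lost the call without the dim arrays (-1.40, adjusted p = 0.057) and without wild-type array 2 (-1.45, adjusted p = 0.052). The female-biased peroxisomal oxidase gene Hao2 was above background on no wild-type array and on 3 knockout arrays, at -4.42, -3.31, -2.45 and -0.28, a lower bound of 4.67-fold. It passed the filter on low signal through the knockout groups alone. Its call (adjusted p = 0.042) was lost without the dim arrays (adjusted p = 0.051) and without any 1 array other than knockout array 1 (adjusted p up to 0.11). Ugt2b1, a glucuronosyltransferase (-0.69, adjusted p = 0.042), and the granzyme gene Gzmb (0.89, adjusted p = 0.040) were not called without the dim arrays either (adjusted p of 0.10 and 0.14), and leaving out single arrays ended the call in 7 fits for Ugt2b1 and in 5 for Gzmb.

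Several lists held no gene that limma called, or none besides those already described, where 2.83% of all genes were called. No gene was called among 17 of the growth hormone and IGF1 axis, 15 of glycogen and insulin signalling, 20 of bile acid synthesis and transport, 16 of the unfolded protein response and 16 of metal handling, where 3, 2, 3, 1 and 2 genes had an unadjusted p under 0.05, against 19.4% of all genes. None was called among 11 sinusoidal endothelial, 11 stellate cell, 6 cholangiocyte, 6 neutrophil and monocyte, 4 erythroid and 4 skeletal muscle markers, with 0, 2, 1, 2, 1 and 1 at an unadjusted p under 0.05. Igf1 differed by -0.20 (adjusted p = 0.73), and Stab2, a scavenger receptor of sinusoidal endothelium, by 0.15 (adjusted p = 0.62). In the circadian list Per1 was the 1 called of 20 (median -0.13), among hepatocyte transcription factors Cebpd was the 1 called of 18 (median -0.12), and Hnf4a differed by -0.40 (adjusted p = 0.22). Nr3c2, the mineralocorticoid receptor, which also binds corticosterone, differed by -0.43 (adjusted p = 0.40). The 10 reference genes had a median of -0.05 and 0 calls, with 1 gene at an unadjusted p under 0.05.

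The same genotype difference was measured in the livers given dexamethasone, on arrays that do not enter the untreated difference itself. All 16 arrays enter the estimate of each gene's spread, so the calls with and without dexamethasone are not independent. With dexamethasone limma called 4120 genes (22.3%), 2590 higher (14%) and 1530 lower (8.28%). Of the 146 genes called lower without treatment, 109 (74.7%) were called lower with dexamethasone as well, which is 7.12% of the treated calls lower. Of the 376 called higher, 152 (40.4%) were called higher with dexamethasone, 5.87% of the treated calls higher, and 83 (22.1%) were called lower, above the 8.28% of all genes called lower there. For the genes called with and without the dim arrays, 50 of 62 (80.6%) of those lower were lower with dexamethasone, and of 180 higher 92 (51.1%) were higher and 38 (21.1%) lower. No test compared these shares.

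In the classic list 19 of 23 genes were called lower with dexamethasone, with a median of -2.15. Without it 8 of 23 were called lower, with a median of -1.06. Of all genes 8.28% were called lower with dexamethasone and 0.79% without. Lpin1 differed by -3.87 with and by -3.39 without treatment, Fkbp5 by -3.95 and -3.26, and Per1 by -1.79 and -1.90. The difference between the genotype effects was tested for every gene and called for 847 (4.59%), or 1523 without the dim arrays, 1501 without untreated knockout array 1 alone, 486 with untreated wild-type array 2 left out, 551 with treated wild-type array 3 left out, and 549 and 515 with treated knockout arrays 2 and 3 left out. It was not called for Lpin1 (-0.48, adjusted p = 0.79), Fkbp5 (-0.69, adjusted p = 0.81) or Nr3c1 (0.03, adjusted p = 0.98). It was called for Serpine2, which differed by -2.15 without and -4.24 with dexamethasone (adjusted p = 0.024), and for Gadd45a, at 1.81 without and 4.33 with it (adjusted p = 0.0054). Olfr677 was higher in the knockout without treatment (2.19) and at -1.05 with dexamethasone (adjusted p = 0.059), a difference of -3.24 between the effects (adjusted p = 0.0045). It was named for its large untreated difference, which that test subtracts, so this call is a description. G6pc was lower without treatment (-1.31) and at -0.46 with it (adjusted p = 0.14), and the difference of 0.84 was not called (adjusted p = 0.15).

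Of the 43 genes named here that were called with all arrays, 30 kept the call without each of the 8 untreated arrays in turn. Of the 43, 13 kept it in those fits and under each of 13 other settings. The other settings include the fit without the dim arrays. The largest rises and the largest falls were named only if called in that fit, so for them it was passed in advance. The fit to the 8 untreated arrays alone ended the call of 26 of the 43. The 13 that kept it in all these fits were Nr3c1, Lpin1, Per1, Cebpd, Errfi1, Pfkfb3 and G6pc among the falls and Cfd, Slc22a26, Kbtbd11, Fam183b, Ighm and Limk1 among the rises. Of these, Lpin1, Pfkfb3, Cfd, Slc22a26, Kbtbd11, Fam183b and Limk1 were named as largest rises or falls. The settings are given with the limits of the data.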

How the data were processed

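Total RNA of each liver was labelled with Cy3 and hybridised to 1 Agilent whole mouse genome array. The deposited scanner files hold, per the file headers, the processed signal, the mean signal and the background of each spot as an intensity, which the authors obtained, per the submitters' processing notes, with Agilent Feature Extraction 9.5. Flag columns, which mark spots and hold no measurement, are other values per the file headers. The authors' series table is an intensity too, and equalled the processed signal (largest difference 0). Each array held 45018 spots, of which 1639 were controls and were left out, and 2121 outlying spots (0.306%) were set to missing. Probe positions are on mm7 as the authors' files give them. Symbols came from RefSeq accessions for 23082 of 41174 probes and from symbols or synonyms for 9655, and 8437 had none.

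The 75th percentile of each array was subtracted from its log2 signals. A probe was kept if at least 3 of the 4 arrays of some group had it well above background (26792 probes), and each gene was read from its brightest probe (18472 genes, of which 15153 had a symbol). The limma package (3.58.1, R 4.3.3) fitted a mean per group over the 16 arrays, with 12 residual degrees of freedom, two-sided tests and Benjamini-Hochberg adjustment over all genes of a comparison; an adjusted p under 0.05 is a call. Where a group was above background on no array, the fold is a lower bound: the brighter group's mean against the mean of, per array, the higher of the lowest signal well above background and the probe's own. Named are Nr3c1, the 10 largest rises and 10 largest falls of 177 genes called with and without the dim arrays, above background on all 4 arrays of a group and not overlapping, the called members of the lists, and the first 2 genes of each list; 107 were named by this rule and a choice of them is printed. The comparison, the lists and the rule were chosen with earlier results of these data known. Lists are described by counts and medians, with no set test. The number of arrays limits the precision. No 2 arrays were duplicates (highest correlation 0.991). Probes of gene families with close relatives (Olfr677, Slc22a26, Obp2a, Ugt2b1, Cela3b) may detect more than 1 gene, which was not checked. Plots were made in Python 3.11.15 (matplotlib 3.10.9).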

Additional observations from a re-analysis of the deposited data

Results flagged for a closer look

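Of 126 groups of 4 arrays looked at for 63 genes, 7 had an array that stood apart from the other 3 by Dixon's criterion (5.6%), and chance gives about 1 in 20. Wild-type array 4 was low for Nr3c1 (2.19, against 2.53 to 2.59) and high for Clec4f, a Kupffer cell lectin (4.62, against 3.99 to 4.03). Knockout array 1 was low for Fkbp5 (-4.56, against -2.88 to -2.81) and high for Clec4f (5.34, against 4.36 to 4.52). Knockout array 4 was low for Apoa1 (7.49, against 8.08 to 8.18). Wild-type array 3 was low for Tsc22d3 (3.37, against 4.35 to 4.46), and wild-type array 1 for Cd74, the invariant chain of MHC class II (2.27, against 2.80 to 2.87).

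For 5 of the 63 genes the genotype effect with dexamethasone differed from that without it in limma's interaction test. Over all 18472 genes this test called 847 (4.59%). Olfr677 was named for its large untreated difference, which the test subtracts. The difference of the effects was -2.08 for Serpine2 (adjusted p = 0.024), -3.24 for Olfr677 (adjusted p = 0.0045), 2.51 for Gadd45a (adjusted p = 0.0054), 1.67 for the mineralocorticoid receptor gene Nr3c2 (adjusted p = 0.022) and 2.86 for Srebf1 (adjusted p = 0.040).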

How the results depend on the processing

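The 522 untreated calls (376 higher, 146 lower) became 85 (46 and 39) under normexp, 261 (193 and 68) with no filter on dim probes, 1542 (938 and 604) with array weights, 80 (61 and 19) with the 8 untreated arrays alone and 319 (245 and 74) with a 2-fold threshold added; without the dim arrays 247 were higher. The untreated count stayed within 1.5 times of 522 under quantile normalization (509), a percentile over bright probes (608), a stricter filter (511), outlying spots kept, probes averaged and a trended robust variance. Leaving out each untreated array in turn gave 151 to 620 calls, 101 to 469 higher and 50 to 225 lower. The 4120 treated calls became 2361 under normexp, 6688 with array weights and 1817 with the 2-fold threshold, and the 847 calls of the difference between effects 1523 without the dim arrays, 107 under normexp, 547 with no filter and 2742 with array weights; leaving out 1 array gave 486 to 1501. Differences reversed for Cdkn1a without the dim arrays (0.051), for Gzmb with dexamethasone under quantile normalization (-0.051) and for Saa1 without wild-type array 4 (0.37) or knockout array 3 (0.10), with a range of -0.69 to 0.37 over single arrays left out. Replicate numbers, which are positions on the slide, were not taken as a pairing: deviations from the group means correlated at -0.14 to 0.35 over the 4 untreated pairs, with 1 over 0.1, and 1 of the 4 wild-type arrays correlated best with its own number. With the number as a block, 565 genes were called higher. The cause of these shifts was not tested.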
